A study of Homo sapiens with 12 samples.

Results

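The comparison set the TRPML3 plasmid against the empty vector over both serum states at once, with serum state as a block, in all 12 of the 12 RNA-seq libraries of the series. The cells were HEK293T, a human embryonic kidney line that takes up plasmids readily and is grown as 1 established line. All 12 cultures received 1 µg of plasmid with the reagent Effectene, so the controls were transfected too. The 6 vector libraries carried the control vector and came from 3 cultures fed with 10% serum and 3 cultures starved in 0% serum for 4 h, and the 6 TRPML3 libraries followed the same plan. The labels call the 3 samples of each condition biological triplicates. They give neither the share of cells that took up plasmid nor the promoter that drives the insert nor the species of its sequence. In such bulk samples, fewer cells with a transcript and less transcript per cell cannot be told apart.

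TRPML3, encoded by MCOLN3, belongs to the mucolipin family of cation channels with MCOLN1 and MCOLN2. These channels sit in the membranes of endosomes and lysosomes and let calcium and other cations out of the organelle. Calcium released by mucolipin channels is known to activate calcineurin, which allows the transcription factor TFEB and its relatives to enter the nucleus and act on lysosomal and autophagy genes that carry a CACGTG element in their promoters. Starvation acts on the same factors through mTORC1, a kinase complex on the lysosomal surface that Rag GTPases and the Ragulator complex recruit.

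Library totals ran from 33101540 to 43700547 counts, and 18030 of 41878 gene rows passed the filter on low counts. Levels below are CPM, counts relative to the TMM-scaled library size, and compare the same gene between libraries. HEK293T genes were present in all libraries: VIM had at least 181.8 CPM, NEFM at least 91.9 and KRT18 at least 30.3. GATA3 was low, with medians of 0.633 CPM in vector and 0.517 in TRPML3 libraries. Of the other cell types' markers, HBB and TTR were at 0 throughout, the summed endothelial markers reached at most 0.494 CPM, and the fibroblast and muscle markers summed to 0.63 to 17.8 CPM in vector and 1.39 to 21.1 in TRPML3 libraries, of which COL1A1 reached up to 20.6. The share of counts from the mitochondrial genome had a median of 3.74% in vector and 3.09% in TRPML3 libraries (range 1.07 to 5.70 and 1.05 to 5.69). It followed the replicate number in vector fed, TRPML3 fed, vector starved and TRPML3 starved cells alike. Replicate 2 was lowest in each group (1.07, 2.52, 1.26 and 1.05%) and replicate 3 highest (5.70, 4.83, 4.92 and 5.69%).

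Only MCOLN3 (ENSG00000055732) passed the test over both serum states. In vector libraries it had 17.3, 12.3 and 18.4 CPM when fed and 9.30, 9.62 and 14.4 when starved. With the TRPML3 plasmid its level was 6208, 4926 and 39950 CPM when fed and 41340, 58200 and 16890 when starved. The lowest TRPML3 library was thus 267-fold above the highest vector library, and the TRPML3 libraries differed among themselves by 11.8-fold. The log2 fold change was 10.91 ± 0.82 (SE), higher in 6 of 6 libraries, with an adjusted p by edgeR's quasi-likelihood test of 0.000407, and it was the 1 gene of 18030 past an adjusted p of 0.05 (0.00555%). With the 6 same-numbered pairs of vector and TRPML3 libraries as a block, MCOLN3 stood at 10.52 on the log2 scale with an adjusted p of 0.117 in edgeR. No gene passed in that fit, and 755 of 18030 had an unadjusted p under 0.05. Leaving out replicate 1 in all groups also left 0 genes, and without replicate 3 in all groups MCOLN3 had an adjusted p of 0.135.

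The other mucolipin genes differed by less than their error. MCOLN2, which lies beside MCOLN3 on chromosome 1 (GRCh38, 84925583 to 84997113 against 85018082 to 85048500), had a median of 17.4 CPM in vector and 18.4 in TRPML3 libraries, with a log2 fold change of 0.01 ± 0.26 that turned negative in 10 of 28 alternatives. MCOLN1, the family member best known from lysosomes, had -0.07 ± 0.22. DNAI3 overlaps MCOLN3 on the opposite strand in GENCODE 29, while in RefSeq coordinates it begins 13827 bases after MCOLN3 ends. It had 1.54 to 5.51 CPM in vector and 1.74 to 5.38 in TRPML3 libraries. So the rise of MCOLN3 was not accompanied by a like rise in its relatives or in this neighbour.

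**Figure D1:**
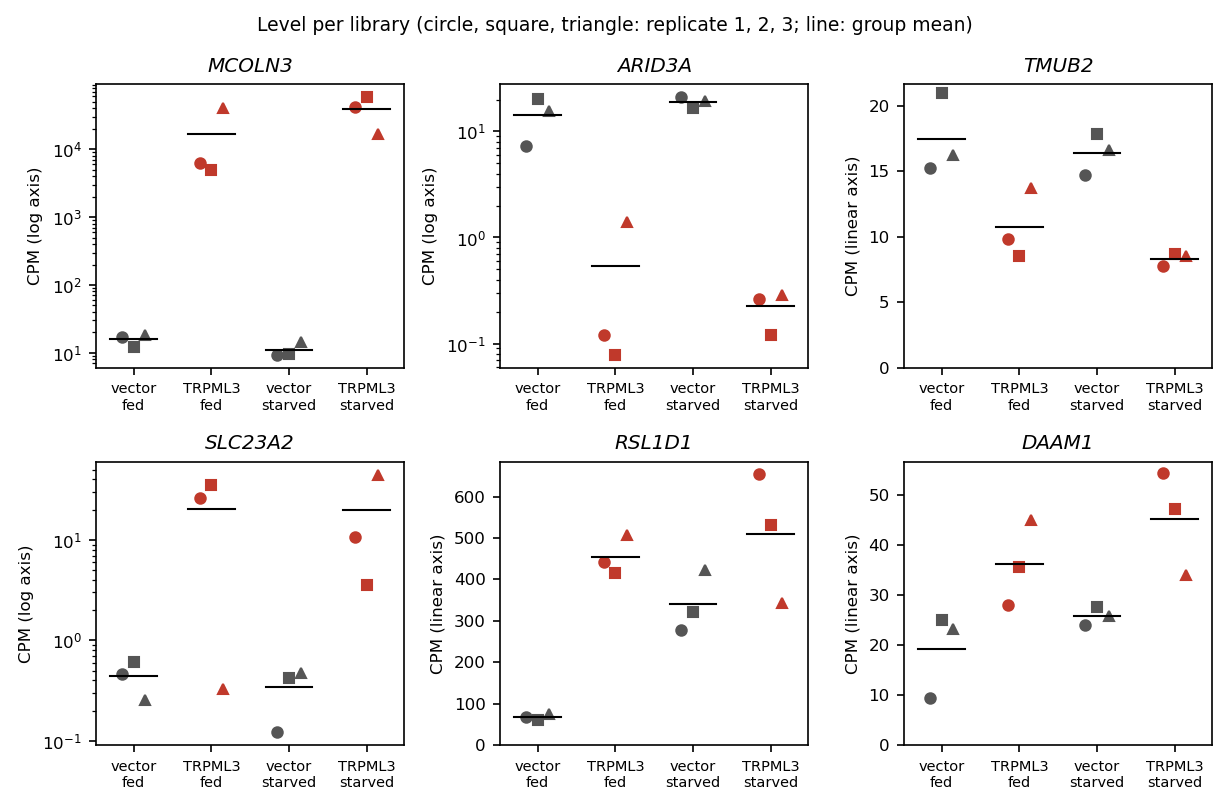
Level of 6 genes in each library in CPM, by group, on a log axis for MCOLN3, ARID3A and SLC23A2 and on a linear axis from 0 for TMUB2, RSL1D1 and DAAM1; symbols give the replicate number and lines the group mean of 3 libraries. The plasmids are apart in both serum states for MCOLN3, ARID3A, TMUB2 and DAAM1, while TRPML3 fed replicate 3 lies among the vector libraries for SLC23A2, and vector fed libraries lie far below all others for RSL1D1.

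Genes whose 6 TRPML3 and 6 vector values do not overlap were then listed as a description. There were 28 of 18030 (0.155%), of which 11 were higher (0.061%) and 17 lower (0.0943%) with TRPML3. How many genes would separate with the plasmid labels shuffled was not counted, so the number alone shows no effect of TRPML3. Of the 28 genes, 25 had a mean of at least 1 CPM with either plasmid. Most of the gaps were narrow. In 26 of the 28 genes the nearest libraries of the 2 plasmids were at most 1.22-fold apart, and only MCOLN3 (267-fold) and ARID3A (5.25-fold) were separated by more. For a looser reading, all 6 same-numbered pairs differed in one direction in 744 genes (4.13%), 371 higher (2.06%) and 373 lower (2.07%). With library size as the only scaling, 48 of 18030 genes did not overlap, 8 of them higher, so the split between higher and lower genes depends on the scaling. Of the 28, 22 stayed apart under all 4 scalings tried, and ACTR2, ANKRD18CP, CTSL, PSAT1, TBC1D15 and the 7SL RNA pseudogene RN7SL130P did not.

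**Figure D2:**
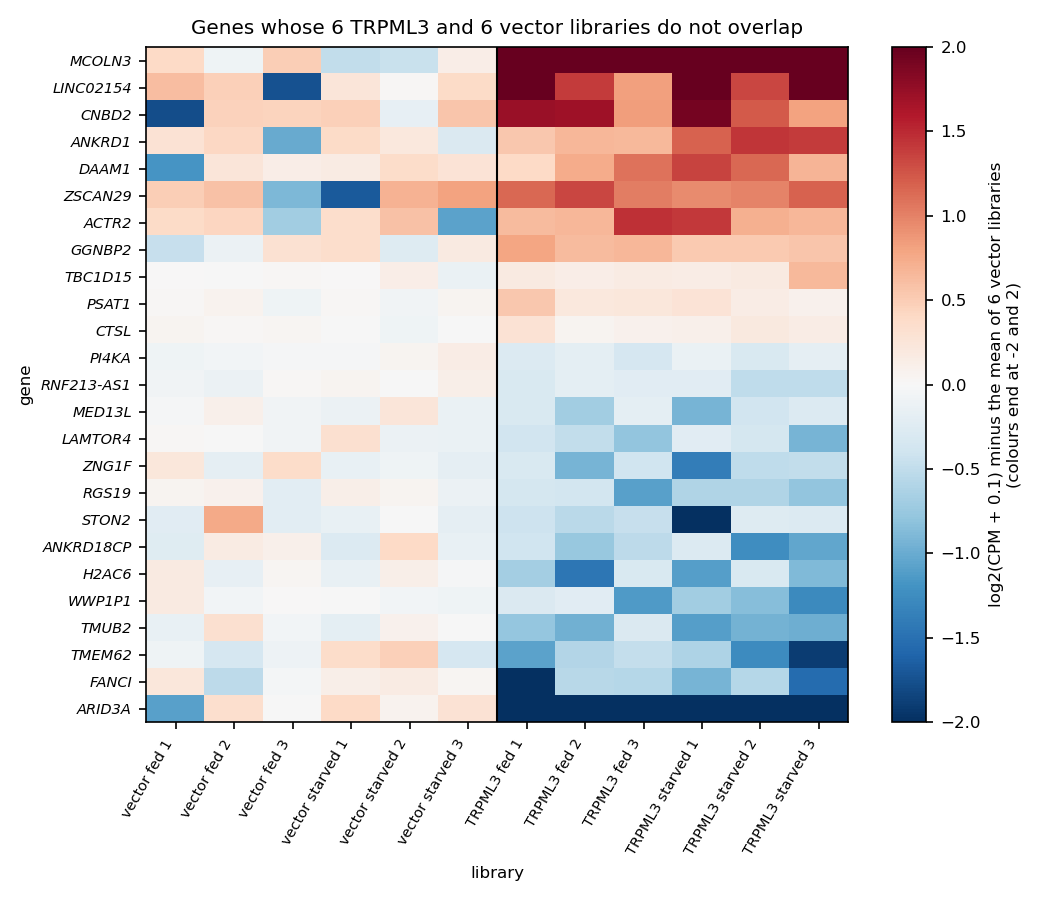
The 25 non-overlapping genes with a mean of at least 1 CPM (rows) in the 12 libraries (columns), coloured by log2(CPM + 0.1) minus the mean of the 6 vector libraries, with colours ending at -2 and 2. MCOLN3 at the top and ARID3A at the bottom reach the end of the scale in all 6 TRPML3 libraries; between them single libraries do so, such as TRPML3 starved replicate 1 for STON2, and the middle of the plot is pale.

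ARID3A (ENSG00000116017) had the most negative fold change of these genes. It encodes a DNA-binding factor with an AT-rich interaction domain, known under the name Bright for binding the immunoglobulin heavy chain locus in B cells. Vector libraries had 7.35, 20.03 and 15.7 CPM when fed and 20.95, 16.6 and 19.3 when starved. TRPML3 libraries had 0.12, 0.0781 and 1.40 CPM when fed and 0.263, 0.12 and 0.289 when starved. In raw counts this was 268 to 877 per vector library against 3 to 43 per TRPML3 library, with 4026 counts in all against 74, and 3 counts are the floor taken here for detection. The log2 fold change was -5.54 ± 0.74, or 46.6-fold lower, lower in 6 of 6 libraries, and edgeR's quasi-likelihood adjusted p was 0.077, which does not pass.

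Of the 27 alternatives that gave a value for ARID3A, 6 placed it past the threshold. The DESeq2 Wald test gave it an adjusted p of 1.38e-15, limma-trend on the authors' normalized values 0.00328, the fit with no serum block 0.0316 and library-size scaling 0.046. With the pairs as a block edgeR's adjusted p was 0.248. Without its highest TRPML3 library, fed replicate 3, edgeR gave -6.68 with an adjusted p of 0.000147, and without replicate 3 in all groups -6.80 with 0.0405. Of the 15 fits with libraries left out, only these 2 called it. Without replicate 1 in all groups edgeR's adjusted p was 0.9999. By serum state the log2 fold change was -4.77 ± 0.96 in fed and -6.38 ± 1.05 in starved cells, which share no library, and edgeR's test of the difference between the states gave an unadjusted p of 0.215 (adjusted, 0.9999). Over the 27 alternatives that gave a value, the log2 fold change ran from -6.80 to -5.02.

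R3HDM4, on one side of ARID3A on chromosome 19 (925732 to 975939, GRCh38), had a median of 22.4 CPM in vector and 24.2 in TRPML3 libraries, and WDR18, on the other side, had 11.7 and 11.2. GRIN3B, beyond WDR18, was low throughout, with medians of 0.43 and 0.227 CPM and a log2 fold change of -0.89 ± 0.70. KISS1R, the nearest gene, was at 0 in all vector libraries and had at most 0.263 CPM with TRPML3, so it gives no comparison. The family member ARID3B had 18.4 to 40.8 CPM in vector libraries and 1.08 to 50.7 in TRPML3 libraries, with a log2 fold change of -0.42 ± 0.59. ARID3C was at 0.748 CPM or less in every library. GENCODE 29 lists 1 gene on the same strand and 1 on the opposite strand that overlap ARID3A, and how the authors' counting assigned shared reads is not given in the sources used here.

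The other lower genes with a mean of at least 1 CPM differed by up to 1.95-fold in the fit. TMUB2, which encodes a ubiquitin-like membrane protein, had 15.2, 21.0 and 16.2 CPM in fed and 14.7, 17.8 and 16.6 in starved vector libraries. With TRPML3 it had 9.84, 8.56 and 13.75 when fed and 7.76, 8.65 and 8.54 when starved. Its log2 fold change was -0.84 ± 0.17, with adjusted p values of 0.9999 (edgeR) and 0.000942 (DESeq2 Wald test), and it was -0.71 in fed and -0.98 in starved cells. FANCI, a DNA crosslink repair protein of the Fanconi anemia pathway, had a range of 78.5 to 131.7 CPM in vector and 23.6 to 76.7 in TRPML3 libraries (log2 fold change -0.97 ± 0.28). TMEM62, which encodes a transmembrane protein, had -0.96 ± 0.28. The replication-dependent histone gene H2AC6 had -0.75 ± 0.23, and polyadenylated RNA is a poor measure of such genes.

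RGS19, a regulator of G proteins, had 1.95 to 2.47 CPM in vector and 1.01 to 1.75 in TRPML3 libraries. STON2, an endocytic adaptor, was 26.0 to 51.6 CPM against 1.02 to 25.3, and its log2 fold change of -0.69 ± 0.52 had an unadjusted p of 0.213 in edgeR although its groups did not overlap. MED13L, a subunit of the Mediator kinase module, had -0.45 ± 0.14, and PI4KA, the phosphatidylinositol 4-kinase of the plasma membrane, 120.1 to 140.3 CPM in vector against 101.3 to 116.1 in TRPML3 libraries. The rest of the lower genes were ZNG1F (-0.64 ± 0.20), RNF213-AS1 (-0.34), the pseudogenes WWP1P1 (-0.80 ± 0.26) and ANKRD18CP (-0.72 ± 0.23), and, under 1 CPM, EPHA10 and the 7SL RNA pseudogenes RN7SL381P and RN7SL130P. ZNG1F and the pseudogenes have close copies elsewhere in the genome, and the antisense RNF213-AS1 overlaps RNF213, so the origin of their reads is uncertain. All of these had an adjusted p of 0.9999 in edgeR.

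Of the genes higher in all TRPML3 libraries, ACTR2, a core subunit of the Arp2/3 complex that branches actin filaments, had 441.5, 455.4 and 208.6 CPM in fed and 434.3, 511.0 and 162.0 in starved vector libraries. With TRPML3 it had 522.8, 534.8 and 929.4 when fed and 906.2, 552.1 and 534.3 when starved. Replicate 3 was the lowest vector library in both serum states, and the log2 fold change was 0.85 ± 0.30. DAAM1, a formin that nucleates actin filaments downstream of Wnt signals, had 9.33 to 27.6 CPM in vector and 27.9 to 54.4 in TRPML3 libraries (log2 fold change 0.86 ± 0.24). ANKRD1, an ankyrin repeat protein known as a YAP target, had 5.48 to 14.9 against 16.3 to 30.2 CPM (0.91 ± 0.26), with 0.59 in fed and 1.22 in starved cells. None of the 3 passed (adjusted p of 0.9999 each in edgeR).

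The remaining higher genes were of mixed function. ZSCAN29, a zinc finger protein, had 13.6 to 77.2 CPM in vector and 84.6 to 111.5 in TRPML3 libraries (log2 fold change 0.86 ± 0.37). GGNBP2, which encodes gametogenetin binding protein, had 30.8 to 54.7 against 61.3 to 73.4 CPM (0.59 ± 0.16); the file's identifier for it is not among those of GENCODE 29. The testis-biased CNBD2 (1.39 ± 0.45) and the long non-coding RNA LINC02154 (1.93 ± 0.60) had at most 2.25 and 1.53 CPM, and LINC02154 was at 0 in vector fed replicate 3. Their adjusted p was 0.9999 each (edgeR).

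LAMTOR4, a subunit of Ragulator, which anchors Rag GTPases on the lysosome, was lower: 21.9, 21.4 and 20.5 CPM in fed and 27.0, 19.9 and 19.6 in starved vector libraries, against 16.6, 15.3 and 12.5 in fed and 18.5, 16.9 and 11.3 in starved TRPML3 libraries. Its log2 fold change was -0.52 ± 0.17. CTSL, the lysosomal protease cathepsin L, was higher by a small amount, with 82.9 to 91.0 CPM in vector and 91.6 to 107.0 in TRPML3 libraries (0.15 ± 0.09, unadjusted p of 0.126 in edgeR). TBC1D15, a GTPase-activating protein for the late endosomal Rab7, had 151.1 to 181.4 CPM in vector and 182.4 to 262 in TRPML3 libraries (0.25 ± 0.11). All had an adjusted p of 0.9999 in edgeR, and the gaps between plasmids were 1.06-fold, 1.01-fold and 1.01-fold.

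Because TFEB and its relatives bind CACGTG, the 250 bases before the start of each gene were searched for it in RefSeq promoters (GRCh38.p14). The motif is its own reverse complement, so a match covers both strands. Of the 23 non-overlapping genes that the naming rule takes, 18 had a promoter entry, and 3 of these 18 (16.7%) held it, against 1772 of 27305 promoters (6.49%). The 27305 promoters are not limited to the genes tested here. Among the gene lists described next, the share ran from 1 of 41 neuronal development genes with an entry (2.44%) to 8 of 26 lysosome genes (30.8%). It was 8.11% for autophagy, 14.3% for ribosome biogenesis and 18.2% for interferon response genes. So a share such as that of the 18 genes was also seen in lists not chosen for TFEB. The 3 stretches are given on the gene's own strand, 5′ to 3′, with the motif in capitals, to show which letters lie around it.
LAMTOR4, chr7:100148884-100148917, plus strand: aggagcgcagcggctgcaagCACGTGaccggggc
MED13L, chr12:116277720-116277765, minus strand: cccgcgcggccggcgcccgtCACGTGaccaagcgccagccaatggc
TBC1D15, chr12:71839718-71839758, plus strand: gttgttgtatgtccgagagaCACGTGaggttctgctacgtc
The motif begins 14, 52 and 21 bases before the start of LAMTOR4, MED13L and TBC1D15. In MED13L it is part of the longer TCACGTGA, which 0.89% of all promoters held. With TRPML3, LAMTOR4 and MED13L were lower and TBC1D15 was higher, so the genes with the motif did not share a direction. A match of letters shows no binding.

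Lists of genes written from general knowledge were read in the same fit. They stand beside the whole table, in which the median log2 fold change was -0.01. In it 419 genes (2.32%) had an unadjusted p under 0.05 in edgeR, 199 higher (1.1%) and 220 lower (1.22%). The 2.32% is below the share that a threshold of 0.05 gives by chance alone. Of the 44 lysosome genes tested, 0 reached that value, and their median log2 fold change was 0.03; CTSL was their single non-overlapping gene. Of the 43 autophagy genes tested, 0 reached it, with a median of 0.08. The lysosome list ran from CTSK, the collagen-degrading cathepsin K, at -0.69 to PSAP, the precursor of the saposins, at 0.73 ± 0.40. The autophagy list ran from MAP1LC3C, an LC3 paralog, at -0.87 to SQSTM1, the autophagy receptor p62, at 0.46 ± 0.29. At adjusted p no lysosome or autophagy gene passed in edgeR or in DESeq2.

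Among 19 endolysosomal channel genes tested, MCOLN3 alone had an unadjusted p under 0.05, and apart from it the log2 fold changes ran from -0.27 to 0.56. Among 15 genes of the TFEB family and its regulators, 1 reached it: RRAGC, a Rag GTPase, with 97.8 to 145.9 CPM in vector and 121.3 to 174.3 in TRPML3 libraries (log2 fold change 0.24 ± 0.11, unadjusted p of 0.0439 in edgeR). Its values overlapped between plasmids. The medians of the 2 lists were -0.07 and -0.02.

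The study's title names neuronal development genes. Of 72 such genes written down, 57 were tested, 0 had an unadjusted p under 0.05 and 0 were free of overlap, and their median log2 fold change was -0.03. The neural stem cell factor SOX2 had 0.04 ± 0.16, the intermediate filament gene NES -0.07 ± 0.17, the guidance cue SLIT2 0.08 ± 0.17 and the homeobox gene DLX5 -0.60 ± 0.34. ELAVL2, a neuronal RNA-binding protein outside the list and named after its values were seen, had 8.37 and 8.75 CPM in fed replicates 1 and 2 and 3.88 and 4.85 in starved replicates 1 and 2 with TRPML3, but 0.163 and 0 in replicate 3 of each state. Vector libraries had at most 0.18 CPM of it. Replicate 3 with TRPML3 thus lay within the vector range in both states. The adjusted p of ELAVL2 was 0.9999 in edgeR and 0.00469 in the DESeq2 Wald test.

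**Figure D3:**
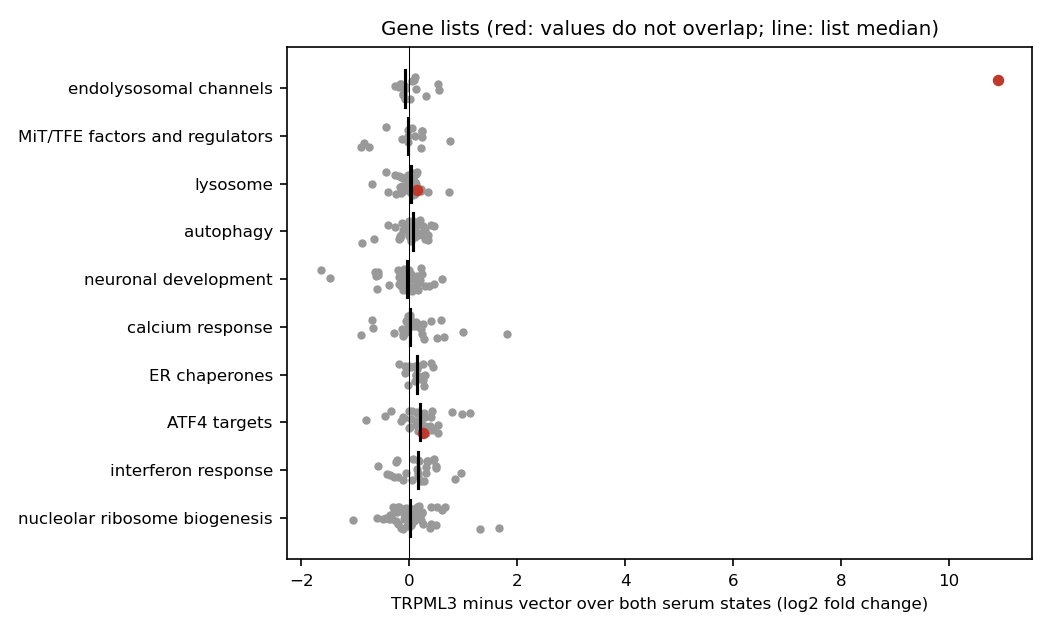
Log2 fold change of each tested member of the 10 gene lists, TRPML3 minus vector over both serum states, with list medians as black lines and members whose plasmid groups do not overlap in red. MCOLN3 at 10.91 is the single far point, and the list medians lie between -0.07 and 0.20.

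Stress-response genes had the highest list median. A list of 34 genes was made up of ATF4, the factor that induces amino acid synthesis and transport under stress, and its targets. Its median log2 fold change was 0.20, and 28 of 34 were above 0, against 8697 of 18030 genes tested. Interferon response genes (19 of 28) and ER chaperones (17 of 23) leaned the same way, and neuronal development genes (22 of 57) did not. In the ATF4 list 5 were higher and 0 lower at an unadjusted p under 0.05 in edgeR, and 0 passed at adjusted p. PSAT1, an enzyme of serine synthesis, was the list's only non-overlapping gene: 445.0, 459.4 and 410.1 CPM in fed and 444.9, 415.2 and 453.1 in starved vector libraries, against 633.0, 505.8 and 509.8 in fed and 531.7, 484.7 and 463.0 in starved TRPML3 libraries. Its log2 fold change was 0.25 ± 0.09 (adjusted p of 0.9999 in edgeR), the gap between plasmids was 1.01-fold and it closed under another scaling. ATF4 itself had 185 to 459 CPM in vector and 285.8 to 535.1 in TRPML3 libraries (0.53 ± 0.21), and PPP1R15A, which restarts translation after stress, 0.43 ± 0.16. These 2 genes overlapped between plasmids and did not pass. Without vector starved replicate 3 the list median was 0.11, and it was 0.12 when only library size was used for scaling, a setting that moved the median of all genes to -0.096.

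In the remaining lists single genes reached an unadjusted p under 0.05. RCAN1, a calcineurin regulator that calcineurin itself induces, had 54.1, 56.6 and 48.3 CPM in fed and 57.5, 61.1 and 45.1 in starved vector libraries, and 72.9, 65.4 and 76.8 in fed and 93.8, 98.2 and 54.0 in starved TRPML3 libraries. It was higher in 6 of 6 same-numbered pairs (log2 fold change 0.51 ± 0.16), but starved replicate 3 with TRPML3 lay within the vector range, and its adjusted p was 0.9999 in edgeR. It was the only 1 of 32 calcium response genes at that value (list median 0.02). Of 23 ER chaperones, PDIA3, a disulfide isomerase, was the 1 at that value (0.43 ± 0.17), with a list median of 0.14. Of 28 interferon response genes 0 reached it (median 0.17).

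RSL1D1, a nucleolar protein, was the 1 of 59 ribosome biogenesis genes at an unadjusted p under 0.05, and the median of these genes was 0.02. It had 68.7, 60.9 and 74.8 CPM in fed cells with the vector, and 443.1, 415.6 and 506.7 with TRPML3. Starved cells had 277.6, 321.5 and 422.9 with the vector, and 654.3, 532.0 and 342.5 with TRPML3. The 3 vector fed libraries lay far below all others, and the starved libraries of the 2 plasmids overlapped. With serum state as a block the log2 fold change was 1.66 ± 0.38 and the adjusted p 0.9999 in edgeR, while the average of separate fed and starved effects, which does not force them to be equal, gave 1.66 ± 0.17 and 0.0107. That fit called 2 genes (0.0111%), RSL1D1 and MCOLN3. The DESeq2 Wald test with serum state as a block gave an adjusted p of 0.0193, so the call depended on both the design and the test.

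The DESeq2 Wald test in the same design called 12 of 17938 genes (0.0669%), 7 higher (0.039%) and 5 lower (0.0279%), and only MCOLN3, ARID3A and TMUB2 of them were free of overlap. The others are named because the test called them. SLC23A2, a sodium-dependent vitamin C transporter, had 0.122 to 0.617 CPM in vector libraries and 26.3, 34.9 and 0.326 in fed and 10.7, 3.59 and 44.6 in starved TRPML3 libraries. So 5 of 6 TRPML3 libraries lay above all vector libraries, and fed replicate 3, the one in which ARID3A was least low, lay within them. The adjusted p of SLC23A2 was 2.13e-09 in DESeq2 and 0.682 in edgeR. Without fed replicate 3 edgeR called it, but this left out the only TRPML3 library that overlapped, so that call adds no support. SYTL4, an effector of Rab27 in granule secretion, had 0.517 to 2.69 CPM in vector and 2.04 to 10.1 in TRPML3 libraries.

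The rest of the DESeq2 calls overlapped as well. AS3MT, an arsenic methyltransferase, had 2.24 to 9.72 CPM in vector and 7.72 to 19.8 in TRPML3 libraries, and the pseudogene RPSAP15 6.02 to 7.96 against 5.37 to 35.8. FCHO2, which starts clathrin-coated pits, had 46.0, 47.7 and 28.0 CPM in vector fed replicate 3 and vector starved replicates 2 and 3 but 1.18, 2.24 and 1.64 in the other vector libraries, against 0.584 to 3.24 with TRPML3. STOX2, a winged-helix factor, had 15.8 to 27.1 against 3.23 to 19.5 CPM. RSL1D1, ELAVL2 and the pseudogene NAIPP2, which was at 0 in all 6 TRPML3 and in 2 vector libraries, complete the 12.

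The fed and starved comparisons share no library. They may still not be independent, since the mitochondrial share followed the replicate number in all groups. At adjusted p under 0.05 edgeR called 2 genes in fed cells (0.0111%), MCOLN3 and RSL1D1, and 1 in starved cells (0.00555%), MCOLN3. In fed cells 398 genes (2.21%) and in starved cells 396 (2.2%) had an unadjusted p under 0.05 for TRPML3 against vector. Of the 398, 54.5% had the same sign in starved cells, of the 396, 53.8% had the same sign in fed cells, and over all 18030 genes the share was 53.4%. There were 32 genes at that value in both states, and 16 of them had the same direction. These 16 were MCOLN3, SLC23A2, ELAVL2, SYTL4, RPSAP15, AS3MT, RSL1D1, DAAM1 and EIF4B, which were higher, and ARID3A, TMUB2, CLASP1, LIF, TYMP, NAIPP2 and RFX3-DT, which were lower. LIF, a cytokine of the interleukin 6 family, had 2.09 to 4.73 CPM in vector and 0.911 to 2.41 in TRPML3 libraries, and the translation initiation factor EIF4B 698.4 to 868.1 and 807.4 to 1285.

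**Figure D4:**
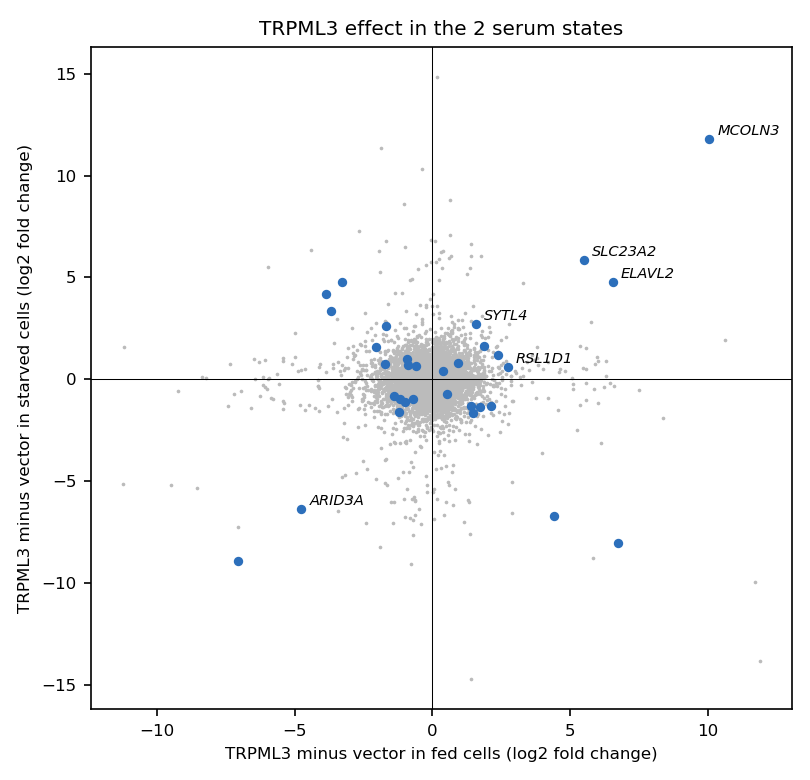
TRPML3 effect on each of 18030 genes in fed (horizontal) and starved cells (vertical) as log2 fold changes, with the 32 genes at an unadjusted p under 0.05 in both states in blue. Of the 32, 16 lie in the quadrants of equal sign, MCOLN3 at the upper right and ARID3A at the lower left, and 16 in those of opposite sign.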

How the data were processed

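The authors deposited raw counts per gene, and a normalized signal equal to the count divided by a factor per library (per the files' values). The submitters' processing notes name FastQC, fastp, HISAT2, StringTie, DESeq2 and GRCh38, without roles, so the counts may be rounded estimates. Whether strand was used is not given in the sources used here. Counts were tested with edgeR 4.0.16 in R 4.3.3 (TMM, filterByExpr, robust quasi-likelihood F test, serum + plasmid, Benjamini-Hochberg adjustment at 0.05). DESeq2 1.42.0 and limma 3.58.1 (log2 of the deposited value + 1) gave alternatives. Standard errors were derived from the fold change and its F. Recovered reads were whole (within 0.01) for 100% of normalized values, and gave 1 called gene.

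Members and lists were chosen with earlier results of these data known. Named genes were the mucolipins, genes at adjusted p under 0.05, up to 12 higher and 12 lower non-overlapping genes of at least 1 CPM by fold change, up to 3 members per list at an unadjusted p under 0.05, and non-overlapping genes called by DESeq2. Others were chosen after their values were seen.

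Deviations of same-numbered vector and TRPML3 libraries from their group means correlated at r of 0.119, 0.163 and 0.356 (fed) and 0.124, 0.104 and 0.323 (starved). All were above 0.1, so the numbers were taken as possible pairs, and with edgeR's log CPM the lowest was 0.0949. A TRPML3 library of another number correlated as well or better for vector fed replicate 1 (0.12) and starved replicate 2 (0.14), so the pairing is uncertain there. No label says what the numbers share. The main fit left the pairs out, and the fit with them as a block is given beside it. No pair of libraries matched within counting noise (chi-square per degree of freedom at least 144 over 66 pairs). On simulated data with a coefficient of variation of 0.52, near the common value of 0.52 measured, 86 of 100 genes with a log2 change of 2 were called among 18030. Of 100 genes with a log2 change of 1, 2 were called. With 0.1, 100 of 100 were called at either size. Of 17830 unchanged genes, 3 were called with 0.52 and 10 with 0.1. Every simulated gene had the same variation, which real genes do not, so these shares do not give the recovery in the data.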

Additional observations from a re-analysis of the deposited data

Results flagged for a closer look

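In the 2 sets of 6 libraries per plasmid, the highest or lowest library of 9 of 62 tested sets lay apart from the rest, by a gap past the critical share of the range in Dixon's test, which chance gives in about 5% of sets. With TRPML3, fed replicate 3 was highest for ARID3A (1.40 CPM, next 0.289) and for TMUB2 (13.75, next 9.84). Starved replicate 3 was highest for TBC1D15 (262 CPM, next 189.4) and PPP1R15A (464.4, next 326.4), and starved replicate 1 was lowest for STON2 (1.02, next 20.8). With the vector, fed replicate 1 was lowest for DAAM1 (9.33 CPM, next 23.2) and highest for WWP1P1 (1.21, next 1.06). Vector fed replicate 2 was highest for STON2 (51.6, next 30.1) and starved replicate 1 for LAMTOR4 (27.0, next 21.9).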

How the results depend on the processing

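The main count of called genes was 1. It was 2 with library size only, with limma-trend, with no serum block, at an adjusted p under 0.1 (each adding ARID3A) and with the average of separate fed and starved effects (adding RSL1D1), 12 with the DESeq2 Wald test, and 0 with the 6 pairs as a replicate block. With the replicate number as a block beside serum state it was 1 (MCOLN3). Leaving out each library, or each replicate number in all groups, gave 0 to 3 called genes and 44 to 376 non-overlapping genes, since fewer libraries overlap less often; library size only gave 48, and all 6 pairs agreed in direction for 744 genes. The other scalings, filters and dispersion settings, and the added test on recovered reads, left both counts within 1.5 times. Of 31 named genes, 29 kept their direction in all alternatives. MCOLN2 turned to -0.076 with library size only, -0.00138 with 10 counts in every library, and ranged from -0.197 to 0.170 with libraries left out; MCOLN1 ranged from -0.187 to 0.0772. Library size only moved the median of all genes from -0.01 to -0.096. List medians changed sign in 25 of 150 refits, 4 of them with that scaling, and in 3 of 10 lists (ATF4 targets, ER chaperones, interferon response) in none. In simulated data with a coefficient of variation of 0.52 for every gene, 2-fold differences were mostly not recovered, while with 0.1 all 100 were. Real genes vary by different amounts, so this does not give the recovery in the data.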

Other observations

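The other 16 genes at an unadjusted p under 0.05 in both serum states differed in opposite directions. CBX6, a Polycomb subunit, had 60.8, 52.4 and 86.8 CPM in vector fed and at most 29.5 in TRPML3 fed libraries, but 45.5, 39.6 and 50.3 in vector starved and 56.3, 84.2 and 86.3 in TRPML3 starved libraries. TLE4, a transcriptional corepressor, had 22.9 to 47.9 CPM in vector fed and 18.1 to 23.7 in TRPML3 fed, and 21.5 to 51.6 in vector starved against 58.3 to 81.6 in TRPML3 starved libraries. IMMT, which encodes the mitochondrial inner membrane protein mitofilin, was above 50 CPM in 4 libraries (vector fed replicates 1 and 2, TRPML3 starved replicates 1 and 3) and at most 9.09 in the others. The readthrough row COMMD3-BMI1 was above 20 CPM in 3 libraries of 2 different groups and at most 0.146 in the others. No interaction passed an adjusted p of 0.05 in edgeR (adjusted p of 0.978 for RSL1D1, the smallest), and the cause of these patterns was not tested.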
